A study of Mus musculus with 2 samples.

Results

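Memory-type CD4 T cells, written below as members, were chosen by raw transcript counts among single cells that had been isolated from the pancreas of female mice of the strain NOD/ShiLtJ, which develops autoimmune diabetes without induction. A member was a barcode whose RNA held at least 2 unique molecular identifiers (UMIs, each standing for 1 captured transcript) of the CD3 genes Cd3d, Cd3e and Cd3g together, at least 1 of Cd4, none of Cd8a, Cd8b1 and Foxp3, and at least 2 of Itgb1, Cxcr3 and Il7r together. Barcodes with 3 or more UMIs of Izumo1r, Tbc1d4 and Tnfsf8 together, 3 or more of Lag3, 2 or more of Lef1, Igfbp4 and Dapl1 together, 2 or more of the B cell gene Cd79a, or 4 or more of 7 cell cycle genes together were left out by the same rule. This gave 126 members among 3913 barcodes that passed the quality limits, 39 of 1109 at 7 weeks and 87 of 2804 at 12 weeks of age.

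CD45.1+ cells, CD45 being the common leukocyte antigen and CD45.1 its form in this strain, had been sorted at either age and their RNA read from the 3' end on the 10x Genomics platform. No treatment or genotype other than the strain was given. Each age was 1 library, so age and library cannot be told apart and no test between ages was possible. How many mice a library pooled is not stated in the labels. Intervals below are exact, at the 95% level, and cover counting error only, not the spread between mice or, for UMIs, between cells.

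Memory CD4 T cells are antigen-experienced helper cells that persist after a response and, compared with naive cells, carry more adhesion molecules and receptors for inflamed tissue. Itgb1 encodes the integrin beta 1 chain, which pairs with alpha chains to bind extracellular matrix and vascular adhesion molecules. Cxcr3 encodes the receptor for chemokines induced by interferon-gamma, and Il7r the receptor chain for interleukin 7, on which naive and memory T cells depend for survival. S1pr1 encodes the sphingosine-1-phosphate receptor by which lymphocytes leave tissue and return to lymph and blood.

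The median member held 5192 UMIs from 1732 genes in the younger library and 4091 UMIs from 1469 genes in the older, and the difference in depth bears on every share of cells with a UMI given below. All gated CD4 T cells numbered 325 and 762, and the rule placed them, besides the members, in a regulatory population with Foxp3 (41 and 54 cells), an Izumo1r-type population with the Izumo1r, Tbc1d4 and Tnfsf8 sum over its limit (183 and 354), a naive-type population with Lef1, Igfbp4 and Dapl1 (53 and 231), a Lag3-high population (3 and 14), and 6 and 22 cells below the limit on Itgb1, Cxcr3 and Il7r. The libraries shared 2 barcode sequences, and 0 members carried either of them. Scrublet, a doublet caller run per library, marked 2 barcodes at 7 weeks (0.180%) and 22 at 12 weeks (0.785%), of which 0 were members. The share it marked at 7 weeks was low enough that doublets cannot be taken as removed.

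Some members held transcripts of other cell types. In 3 of 39 members at 7 weeks and 3 of 87 at 12 weeks, over 1% of UMIs came from marker lists of B cells, myeloid cells, plasmacytoid dendritic cells, acinar, endocrine, erythroid or endothelial cells (64 genes in 7 lists). Among the remaining members the highest such share was 0.224% at 7 weeks and 0.656% at 12 weeks, so that the 6 barcodes stood apart. At 7 weeks 1 of them held 626 UMIs of Cd74 and 198 of Lyz2, genes of antigen-presenting and myeloid cells, and at 12 weeks 1 took 28.6% of its 24162 UMIs from endocrine genes, which make the islet hormones. These 6 barcodes, called mixed barcodes below, carried 14.7% of the members' UMIs at 7 weeks and 13.2% at 12 weeks. With them, the summed B cell list stood at 10030 and 2974 CPM (counts per 1000000 of the UMIs summed over the members of a library) and the myeloid list at 5013 and 2619 CPM. Without them, the B cell list stood at 462 and 453 CPM and the myeloid list at 390 and 509 CPM, beside 435 and 410 CPM and 331 and 480 CPM in naive-type cells. Calls between populations and between ages, list levels and the members' shares were therefore also computed without the mixed barcodes of every population compared. Some results include them throughout, namely the combinations and bins of the rule's genes and the shares after thinning. So do the age ratios of the other populations, their shares and their cells at the Ccl5 limit.

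**Figure D1:**
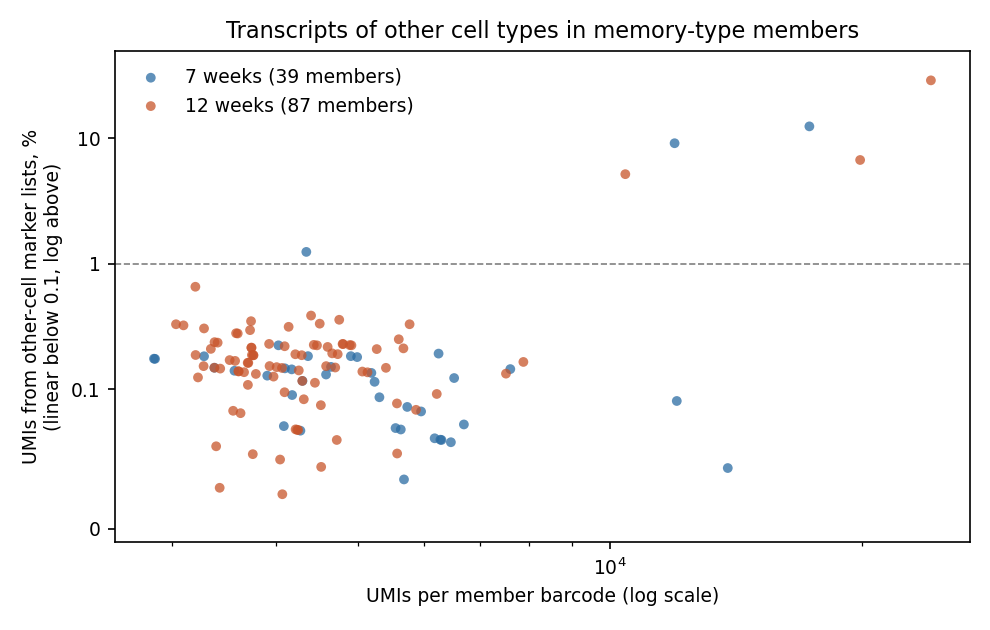
Share of each member's UMIs that came from the 7 marker lists of other cell types (vertical axis, percent, linear below 0.1 and logarithmic above) against its total UMIs (horizontal, log scale), with 39 members at 7 weeks in blue and 87 at 12 weeks in orange. The dashed line marks 1%, and 3 members of each age lie above it, up to 29.0%.

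Innate-like lymphocytes can also carry Cxcr3 and Il7r. Of their genes, Zbtb16, the transcription factor of natural killer T cells, had UMIs in 2 of 39 and 0 of 87 members. Klrb1c, which encodes NK1.1, had them in 0 of 39 and 1 of 87, but other genes of these cells were not absent. The summed list of innate-like and natural killer markers, 12 genes, was at 1029 and 347 CPM with the mixed barcodes and at 262 and 151 CPM without them (101 and 59.1 CPM in naive-type cells). Of the 29 UMIs of Xcl1, a chemokine gene of that list, at 7 weeks, a single member held 82.8%. Without the mixed barcodes, 10 and 8 of the 12 genes were detected in members. Xcl1 was then at least 2-fold higher than in naive-type cells in both libraries, 1 of 2 measured genes. Klrd1, also of that list, was higher than in Izumo1r-type cells, 1 of 6 measured genes, and 0 genes were lower in either comparison.

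Members made up 3.52% of kept barcodes at 7 weeks (interval 2.51 to 4.78%) and 3.10% at 12 weeks (2.49 to 3.81%). Of gated CD4 T cells they made up 12% (8.67 to 16%) and 11.4% (9.25 to 13.9%). The 12 over 7 week ratio of the share of CD4 T cells was 0.951, with an interval of 0.645 to 1.43 that included 1 and covers counting error in cells only. Without the mixed barcodes it was 0.961 (0.643 to 1.46). Naive-type cells made up 16.3% of the gate at 7 weeks and 30.3% at 12 weeks, a ratio of 1.86 (1.37 to 2.56).

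The genes of the rule describe how cells entered and support nothing further. Itgb1 lies on mm10 chromosome 8 from 128685654 to 128733200, Cxcr3 on chromosome X from 101731535 to 101734269, and Il7r on chromosome 15 from 9505788 to 9530176. In members Itgb1 stood at 919 and 561 CPM at 7 and 12 weeks, with UMIs in 37 of 39 and 70 of 87 members. Cxcr3 stood at 377 and 345 CPM, with UMIs in 29 of 39 and 60 of 87. Il7r stood at 158 and 464 CPM, with UMIs in 18 of 39 and 62 of 87. Itgb1 was thus the most common of the genes of the rule at either age, and Il7r the least common at 7 weeks. In B cell barcodes, with median depths of 4976 and 4600 UMIs, Cxcr3 had UMIs in 3 of 106 and 30 of 477, and Il7r in 4 and 3. Itgb1 had them in 13 and 65, but B cells can express it themselves, so this gives no background for it.

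The combination of these genes that brought a cell in differed in share between the libraries, with the mixed barcodes counted. At 7 weeks 16 of 39 members held Itgb1 and Cxcr3 without Il7r (41.0%, 25.6 to 57.9%), and at 12 weeks 14 of 87 did (16.1%, 9.09 to 25.5%). Members with UMIs of all of them numbered 11 of 39 (28.2%, 15.0 to 44.9%) and 33 of 87 (37.9%, 27.7 to 49.0%). Il7r alone brought in 0 of 39 and 4 of 87. The members just above the limit, with 2 UMIs of Itgb1, Cxcr3 and Il7r together, were 1 cell at 7 weeks and 8 at 12 weeks, and just below it, with 1 UMI, were 6 and 10 cells. At 12 weeks S1pr1 stood at 82.4 CPM in the 8 cells just inside and 214 CPM in the 10 just outside. Members with over 10 UMIs of the rule's genes held Cxcr6, a chemokine receptor gene of tissue T cells, at 406 and 432 CPM, against 180 and 176 CPM in those with 6 to 10 and 68.5 and 243 CPM in those with 4 to 5. The median depths of these bins were 5549, 4820 and 4473 UMIs at 7 weeks and 4478, 4176 and 4040 UMIs at 12 weeks.

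**Figure D2:**
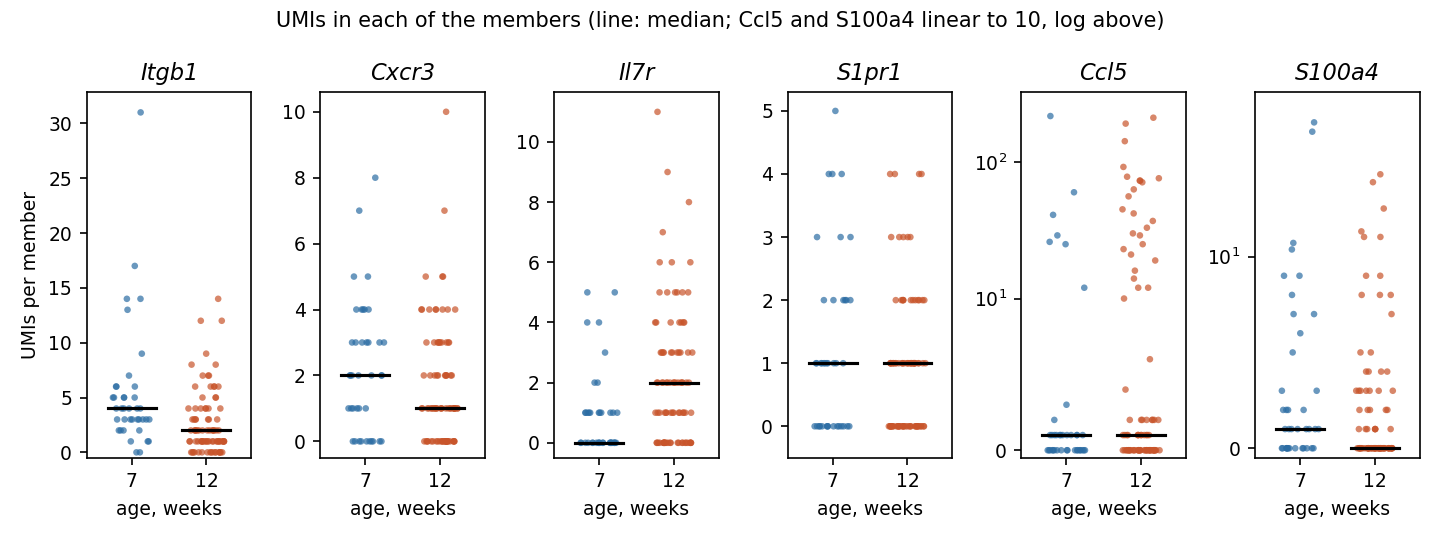
UMIs of Itgb1, Cxcr3, Il7r, S1pr1, Ccl5 and S100a4 in each of the 39 members at 7 weeks (blue) and the 87 at 12 weeks (orange), 1 point per member with a little sideways scatter, black lines at the medians. The Ccl5 and S100a4 axes are linear to 10 and logarithmic above, and Ccl5 lay at 0 to a few UMIs in most members and at 10 or more in 7 and 26 of them.

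S1pr1 was the only marker listed for the population that the rule did not use. The markers were chosen with earlier results of these data known, so the level of S1pr1 describes the members and tests nothing. S1pr1 lies on mm10 chromosome 3 from 115710433 to 115715072. The members of the younger library held 49 UMIs of S1pr1 (215 CPM) and those of the older 86 (209 CPM), in 24 of 39 and 52 of 87 members, with at most 5 UMIs in a member and a median of 1. The 12 over 7 week ratio was 0.973 (0.677 to 1.41). Naive-type cells held 192 and 214 CPM, Izumo1r-type cells 60.4 and 68.1 CPM, and regulatory cells 53.5 and 65.9 CPM. Members were 3.55-fold (2.44 to 5.12) and 3.07-fold (2.32 to 4.04) above Izumo1r-type cells, and 1.12-fold (0.746 to 1.68) and 0.975-fold (0.752 to 1.26) against naive-type cells. The population therefore held S1pr1 at a level that overlapped that of naive-type cells in either library and lay above Izumo1r-type and regulatory cells. Cells below the limit on Itgb1, Cxcr3 and Il7r held 230 CPM at 7 weeks, from 6 cells of which 1 was a mixed barcode. At 12 weeks they held 91.5 and 214 CPM, with 0 and 1 UMIs of the rule's genes. S1pr1 thus did not set members apart from the cells with 1 such UMI. B cells express S1pr1 themselves, at 72.3 and 52.3 CPM here, and give no background for it. With each cell thinned to 2000 UMIs, so that depth was equal, 12 of 39 and 29 of 87 members had S1pr1, against 20 of 53 and 80 of 231 naive-type cells and 21 of 183 and 45 of 354 Izumo1r-type cells. Without the mixed barcodes the members' S1pr1 stood at 252 and 232 CPM, and their folds over Izumo1r-type cells were 3.95 and 3.37.

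Against naive-type cells, 224 of 5455 genes with at least 30 UMIs were at least 2-fold higher in members in both libraries (4.11%) and 55 were at least 2-fold lower (1.01%). Genes of the rule were left out of these counts. The cells of each population were themselves chosen by expression, so the counts describe the populations and test nothing. The counts were 173 and 65 of 5249 without the mixed barcodes, of which 142 and 49 were shared. The median log2 fold over all genes tested was 0.22 at 7 weeks and 0.19 at 12 weeks.

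Of the memory and motility list, 17 of 18 genes could be measured, 9 were at least 2-fold higher in members in both libraries and 0 were lower, with a median log2 fold of 1.68 at either age. S100a4, a calcium-binding protein of motile cells, stood at 915 and 556 CPM in members and 52.2 and 36.3 CPM in naive-type cells, folds of 17.5 and 15.3. S100a6 was 17.4-fold and 7.38-fold higher, and Cd44, the hyaluronan receptor used to identify memory T cells, 3.89-fold and 7.56-fold. The list had 10 of 17 genes higher without the mixed barcodes. It differed less from the other populations. Against Izumo1r-type cells 2 of 18 genes were higher and 0 lower, or 3 of 17 and 0 without the mixed barcodes. Against regulatory cells 1 of 17 was higher and 1 lower, with and without them. Of the naive T cell list, 4 of 9 measured genes were lower than in naive-type cells and 0 higher. Ccr7, which guides cells to lymph nodes, stood at 91.9 and 141 CPM against 244 and 366 CPM. Satb1, a chromatin organiser of developing and naive T cells, was 0.338-fold and 0.290-fold, and Actn1 also passed. Tcf7, Foxp1 and Klf2 did not pass 2-fold in both libraries. Members thus had less of the lymph node homing gene Ccr7 than naive-type cells, while the intervals of the S1pr1 folds, given above, included 1.

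The T helper 1 list, which holds genes of interferon-gamma-producing cells, had 8 of 9 measured genes higher in members than in naive-type cells (7 without the mixed barcodes, Ccl4 no longer passing) and 0 lower. Ifng, the cytokine itself, stood at 123 and 119 CPM in members and 17.4 and 11.2 CPM in naive-type cells. It had UMIs in 12 of 39 and 28 of 87 members, against 7 of 106 and 10 of 477 B cell barcodes. Nkg7, a protein of cytotoxic granules, was 7.55-fold and 19.7-fold higher, Cxcr6 4.93-fold and 12.5-fold, Il18rap, a chain of the interleukin 18 receptor, 6.29-fold and 6.33-fold, and Runx3, a factor of T helper 1 and CD8 T cells, 2.32-fold and 2.39-fold. Tbx21, which encodes T-bet, was seen in 7 of 39 and 9 of 87 members and had too few UMIs to be compared. Of the T helper 17 list, 2 of 2 measured genes, Rora and Maf, were higher in members than in naive-type cells, with and without the mixed barcodes. Of the T helper 2 list only 1 gene, Gata3, was measured, and it passed only without the mixed barcodes. The cytokine genes Il17a, Il22, Il4, Il5 and Il13 of these lists had 0 UMIs in members of both libraries. A count of 0 allows a share of members with a UMI, not of members expressing the gene, of up to 3.45% of 87 and 7.69% of 39, taken as 3 cells of the total and not as an exact interval. Il17a, Il5, Il13 and Il22 also had 0 UMIs in every other population named above.

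Of the follicular helper list, 6 of 7 measured genes were higher in members than in naive-type cells, with and without the mixed barcodes. Pdcd1, the inhibitory receptor PD-1, stood at 127 and 72.8 CPM against 6.96 and 8.38 CPM, but a single member held 44.8% of its UMIs at 7 weeks. Of the tissue residence list, 4 of 6 were higher than in naive-type cells (Cxcr6, Runx3, Rgs1 and Bhlhe40). Against Izumo1r-type cells 1 of 8 was higher and 1 lower, and against regulatory cells 1 of 8 higher and 2 lower. Itgae and Itga1, which encode integrin chains of resident T cells, had 1 UMI and 0 UMIs at 7 weeks and 0 of each at 12 weeks. The integrin alpha 4 gene Itga4, whose product pairs with integrin beta 1, was the only gene of its list to pass against naive-type cells. It stood at 232 and 240 CPM in members and 55.7 and 91.2 CPM there. In the list of interleukin 7 and common gamma chain signalling, Il2rb, the receptor chain for interleukins 2 and 15, was higher at 10.1-fold and 10.2-fold, whereas Bcl2 (0.393-fold and 0.421-fold), a survival factor, and Il4ra were lower. Ranked by the fold nearer 1, the genes highest against naive-type cells were S100a4, Myo1f, Runx2, Il2rb, Gna15, Pdcd1, Nr4a2, Hopx, Maf and Gzmk. Gzmk, which encodes granzyme K, stood at 78.8 and 126 CPM in members, with 0 UMIs in naive-type cells at 7 weeks and 5.58 CPM at 12 weeks. Against a floor of 3 UMIs over the naive-type cells, it was at least 7.55-fold higher at 7 weeks. The lowest were Klhdc1, St8sia6, Lpcat3, Pinx1, Klhdc2, Pik3ip1, Treml2, Cnst and Fam46a, and all of these kept their direction at 2-fold without the mixed barcodes. St8sia6, Lpcat3, Pinx1, Cnst and Fam46a had only 1 to 3 UMIs in members per library. Their fold intervals included 1 in at least 1 library. The intervals of Klhdc1, Klhdc2, Pik3ip1 and Treml2 lay below 1 in both libraries, from 0 to 12 UMIs in members.

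**Figure D3:**
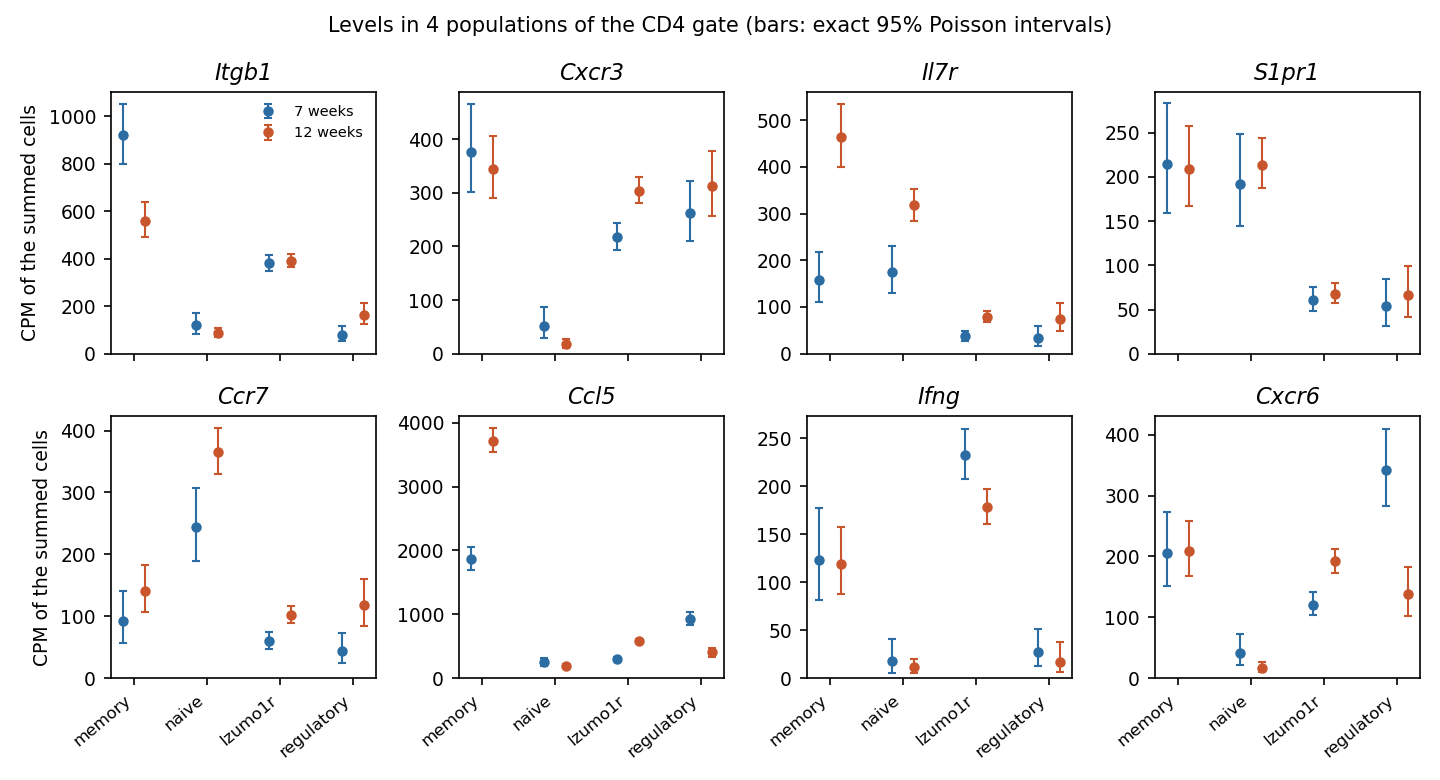
CPM of 8 genes in the summed cells of the memory-type, naive-type, Izumo1r-type and regulatory populations at 7 weeks (blue) and 12 weeks (orange), with exact 95% Poisson intervals that cover counting error only. S1pr1 in members lies beside its level in naive-type cells, Ccr7 lies below its level there, and of these 4 populations Ccl5 is highest in members at both ages. Lag3-high cells and the cells below the limit on Itgb1, Cxcr3 and Il7r are not drawn. The latter held Ccl5 at 5128 CPM at 7 weeks (6 cells). At 12 weeks they held 128 and 1950 CPM, with 0 and 1 UMIs of the rule's genes.

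Izumo1r-type cells, the largest population of the gate, were compared because they also held Itgb1 (380 and 391 CPM) and Cxcr3 (217 and 304 CPM). Of 7792 genes, 119 were at least 2-fold higher in members in both libraries (1.53%) and 204 at least 2-fold lower (2.62%). Without the mixed barcodes the counts were 96 and 220 of 7594, with 62 and 132 shared. Scaling by the median of gene ratios in place of total UMIs moved them to 162 and 161, so the excess of lower genes depends on that choice. That median stood at -0.14 on the log2 scale at 12 weeks.

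The exit and recirculation list stood out by its counts: 5 of 6 genes were higher in members and 0 lower, with a median log2 fold of 1.42 and 1.66 against 0.02 and -0.07 over all genes tested. Summed, it stood at 779 and 723 CPM in members and 298 and 306 CPM in Izumo1r-type cells. Members were not alone in this, with 947 and 1121 CPM in naive-type cells and 880 and 766 CPM in cells below the limit on Itgb1, Cxcr3 and Il7r. Besides S1pr1, Klf2, the transcription factor that controls S1pr1, was 3.45-fold (2.02 to 5.79) and 3.83-fold (2.26 to 6.43) higher, its relative Klf3 2.80-fold and 3.74-fold, and S1pr4, another sphingosine-1-phosphate receptor, 2.34-fold and 2.24-fold. These 4 genes were also higher without the mixed barcodes, where they were the whole count. Sidt1, Rasgrp2, an activator of integrin signalling, Dusp5, Cd7, St3gal6 and Tdrp were also among the highest genes. St3gal6 and Tdrp had only 4 UMIs each in members at 7 weeks, with fold intervals there that included 1. Rasgrp2 stood at 201 and 180 CPM in members against 45.7 and 53.7 CPM. Lair1 and Nod1 were in the ranking with all members, and without the mixed barcodes neither had 30 UMIs.

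Of the follicular helper list, genes of helper activity towards B cells, 7 of 12 were lower in members (6 without the mixed barcodes) and 0 higher. Il21, a cytokine that drives B cell responses, had 1 UMI in members at either age, 4.38 and 2.43 CPM, against 62.6 and 80.5 CPM in Izumo1r-type cells. Cd200 was 0.117-fold and 0.140-fold, Pdcd1 0.386-fold and 0.229-fold, and Cxcr5, the follicle homing receptor, 0.233-fold and 0.150-fold. Of the T cell receptor activation list 6 of 18 were lower and 0 higher, counts that were also found without the mixed barcodes, and Egr2, a factor induced by the receptor, had 1 UMI in members at either age. Of the inhibitory receptors 5 of 8 were lower (4 without the mixed barcodes), and of the regulatory T cell list 5 of 9. Izumo1r, Tbc1d4, Tnfsf8 and Lag3 were in the rule and were not counted.

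The T helper 1 list was split between members and Izumo1r-type cells. Of 13 measured genes 4 were higher in members, namely Ccl5, Il18r1, Il18rap and Runx3, and 3 were lower, namely Ccl3, Ccl4 and Tnf (Ccl3 and Ccl4 without the mixed barcodes). Ccl5 was 6.13-fold (5.34 to 7.03) and 6.48-fold (6.0 to 6.99) higher, whereas Ccl4 was 0.135-fold (0.0715 to 0.233) and 0.0866-fold (0.0541 to 0.132). Both encode chemokines that attract T cells and myeloid cells. Ifng was 0.527-fold (0.344 to 0.776) and 0.667-fold (0.485 to 0.900) and did not pass 2-fold in both libraries.

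Regulatory cells held Cxcr3 near the members' level (261 and 313 CPM). This comparison was added after the data had been seen. Of 4730 genes 79 were at least 2-fold higher in members (1.67%) and 206 at least 2-fold lower (4.36%), and without the mixed barcodes 85 and 206 of 4309, with 59 and 162 shared. Scaling by the median of gene ratios, which stood at -0.17 on the log2 scale at 12 weeks, gave 106 and 167. Cd40lg, the ligand by which helper T cells activate B cells and dendritic cells, stood at 149 and 99.5 CPM in members and 11.9 and 8.60 CPM in regulatory cells, folds of 12.5 (4.47 to 48.6) and 11.6 (3.69 to 58.4). Ifng was 4.59-fold and 6.92-fold higher and Tcf7 4.75-fold and 2.40-fold. Of the regulatory T cell list 7 of 8 were lower, among them Ikzf2 (105 and 85.0 CPM against 1060 and 1270 CPM), Ctla4 and Tnfrsf4. Il10 had 0 UMIs in members and 466 and 77.4 CPM in regulatory cells, so that the fold, against the floor of 3 UMIs over the members, was at most 0.0282 and 0.0941. Of the recirculation list S1pr1, Klf2 and Klf3 were higher, and S1pr4 too without the mixed barcodes.

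**Figure D4:**
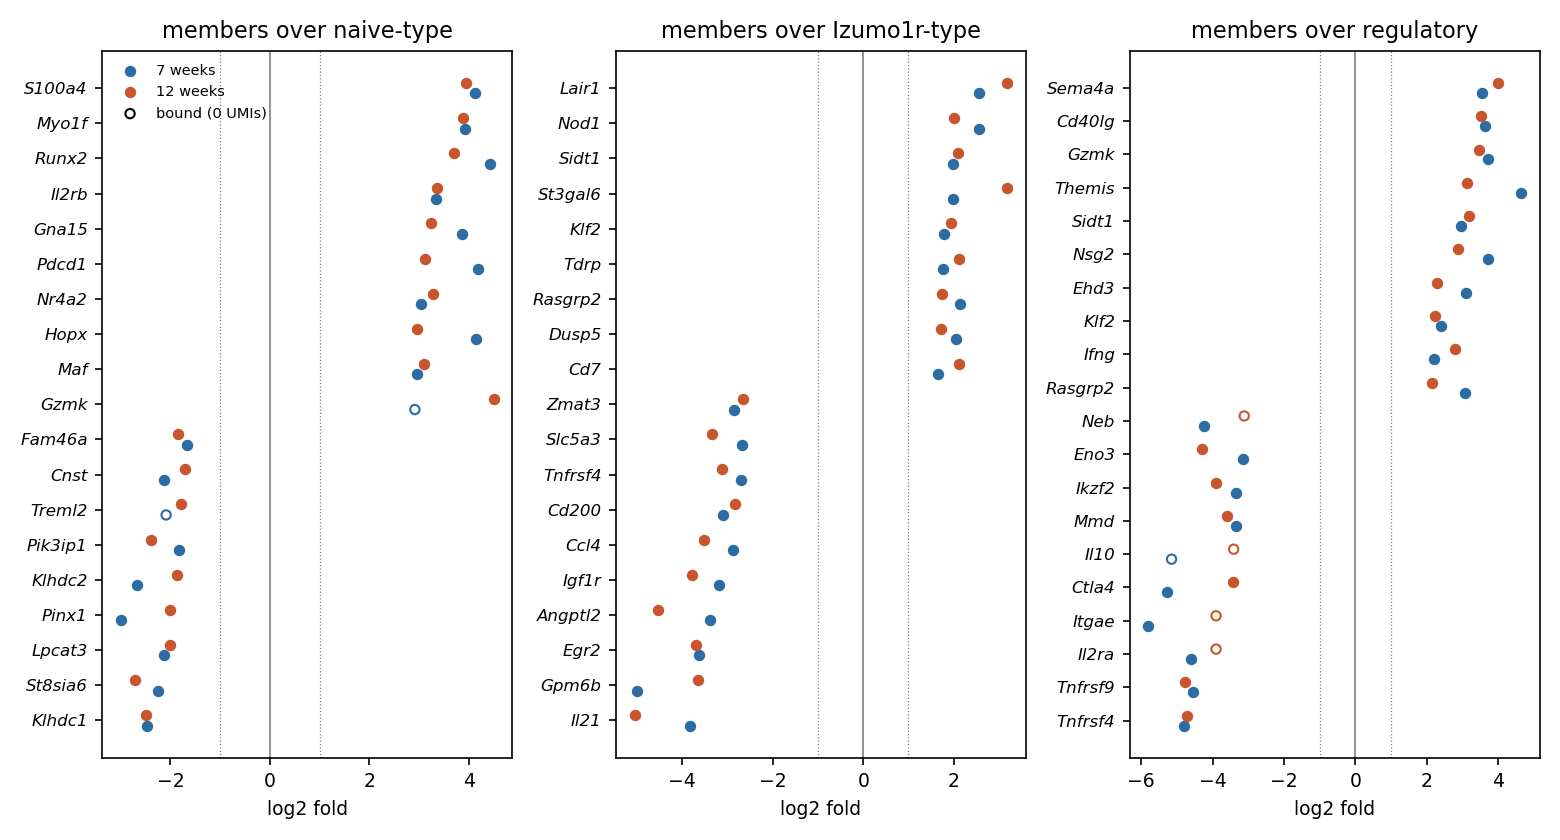
Log2 fold of members over naive-type, Izumo1r-type and regulatory cells for the highest and lowest genes of each comparison, ranked by the library in which the fold is nearer 1, at 7 weeks (blue) and 12 weeks (orange). Dotted lines mark 2-fold, open circles are bounds where 1 population had 0 UMIs, and all points lie beyond the dotted lines since the ranking chose them.

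Ccl5 was not spread evenly over the members. It lies on mm10 chromosome 11 from 83525778 to 83530518. Members of the younger library held 427 UMIs of it (1869 CPM, highest member 217, median 1) and members of the older 1533 (3721 CPM, highest member 211, median 1). UMIs of Ccl5 were found in 21 of 39 and 49 of 87 members, and also in 44 of 106 and 168 of 477 B cell barcodes, so a single UMI of this gene does not separate a member from background. A limit of 10 UMIs, set after the values had been seen, was reached by 7 of 39 members (17.9%, 7.54 to 33.5%) and 26 of 87 (29.9%, 20.5 to 40.7%), and by 0 of the 106 and 477 B cell barcodes, which allows up to 2.83% and 0.629%, taken as 3 barcodes of the total. These members held 96.0% and 97.5% of the Ccl5 UMIs. The same limit was reached by 1 of 53 and 1 of 231 naive-type cells, by 8 of 183 and 18 of 354 Izumo1r-type cells, and by 8 of 41 and 2 of 54 regulatory cells. The 12 over 7 week ratio of the share of members was 1.67 (0.704 to 4.54), an interval that includes 1.

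Within the members, without the mixed barcodes, those with at least 10 Ccl5 UMIs numbered 6 and 25 and the rest 30 and 59, with median depths of 5680 and 4216 UMIs against 4777 and 4061. Nkg7 was found in 5 of the 6 and in all 25, at 1674 and 2018 CPM, and in 17 of 30 and 29 of 59 of the rest, at 688 and 333 CPM. In B cell barcodes Nkg7 had UMIs in 12 of 106 and 77 of 477. Gzmk stood at 389 and 350 CPM against 31.0 and 51.6 CPM, and Tbx21 at 120 and 85.3 CPM, from 4 and 9 UMIs, against 37.2 and 7.94 CPM. Klf2 stood at 0 and 56.9 CPM against 130 and 83.4 CPM. Ccl5-rich members thus had higher levels of Nkg7 and Gzmk, the latter from 13 UMIs in 3 of 6 cells at 7 weeks, and lower levels of Ccr7 (29.9 and 75.8 CPM against 118 and 195 CPM) and Tcf7 (149 and 104 CPM against 316 and 226 CPM), a factor of naive and self-renewing T cells. S1pr1 was found in 3 of 6 and 13 of 25 of them, at 149 and 208 CPM, and in 21 of 30 and 37 of 59 of the rest, at 273 and 242 CPM. Ifng was at 59.8 and 161 CPM against 161 and 107 CPM and did not keep 1 direction. With 6 cells at 7 weeks, 1 cell can set these levels, and no test was made.

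Between the ages, 91 of 2598 genes with at least 30 UMIs in members were at least 1.5-fold higher at 12 weeks with an interval above 1 (3.5%) and 210 were lower by the same rule (8.08%). Without the mixed barcodes 65 and 148 of 2294 were, 46 and 128 of them shared. Taking away, for each gene, only the UMIs of its top member in the higher library left 34 and 70 of 2395 genes, 31 and 68 of them shared. Library totals and the other library were kept as they were, so this moves ratios only against the call. Some genes also fell under 30 UMIs, so how many calls rest on 1 cell cannot be read from these counts. The median log2 ratio over all genes was -0.06.

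Of the genes of the rule, Il7r had a 12 over 7 week ratio of 2.94 (2.05 to 4.33), or 2.67 without the mixed barcodes, and it was 1.82 in naive-type and 2.11 in Izumo1r-type cells. Itgb1 had a ratio of 0.610 (0.504 to 0.739), 0.628 without the mixed barcodes, 0.718 in naive-type and 1.03 in Izumo1r-type cells. Without the member that held 14.8% of its UMIs at 7 weeks, Itgb1 did not reach 1.5-fold. Both chose the members, so these values only describe them. Ccl5 had a ratio of 1.99 (1.79 to 2.22) and of 2.25 (2.0 to 2.52) without the mixed barcodes, and a single member held 50.8% of its UMIs at 7 weeks. In naive-type cells the ratio was 0.750, in Izumo1r-type cells 1.88 and in regulatory cells 0.430. Stat4, which transmits the interleukin 12 signal, was higher at 12 weeks, at 112 CPM (46 UMIs) against 39.4 CPM (9 UMIs), a ratio of 2.83 (1.37 to 6.59), beside 1.29 in naive-type, 0.908 in Izumo1r-type and 1.39 in regulatory cells.

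Tsc22d3, which encodes the glucocorticoid-induced leucine zipper, was found in 7 of 39 and 46 of 87 members, at 61.3 and 199 CPM. Its ratio was 3.25 (1.83 to 6.20), and 4.36 without the mixed barcodes, against 1.73 in naive-type, 2.09 in Izumo1r-type and 2.22 in regulatory cells. Nolc1, Tardbp, Xrn2, Ppa1 and Trp53 were the other named genes that were higher with the mixed barcodes (2.77-fold to 4.85-fold) and without them (2.63-fold to 4.50-fold). Some of these ratios were also above 1.5 in other populations. Nolc1 had 3.37 in naive-type and 2.47 in regulatory cells, Tardbp 2.33 in naive-type, Xrn2 1.66 in regulatory and Ppa1 2.47 in regulatory cells, and Trp53 lay between 1.10 and 1.36 in the naive-type, Izumo1r-type and regulatory populations. Ifitm3 had a ratio of 3.19 with all members but came mainly from mixed barcodes: 16 and 92 UMIs at 7 and 12 weeks became 7 and 8 without them, under the limit of 30. Ier3 and Cltb also fell under 30 UMIs without them.

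Among the lower genes, Ier5, an immediate-early response gene, went from 236 to 38.8 CPM, a ratio of 0.164 (0.0878 to 0.291). The ratio was also low in the other populations, at 0.152 in naive-type, 0.174 in Izumo1r-type and 0.200 in regulatory cells. Lrrc58 (0.252), Bag1 (0.172), Chd3 (0.370), Tmem160 (0.266), Ybx1 (0.380) and AY036118 (0.373) were also below 1 in each of those populations, at 0.196 to 0.625. Irf8 and Yy1 fell under 30 UMIs without the mixed barcodes. Lgals1, which encodes galectin 1, had a ratio of 0.467 (0.394 to 0.552) in members, 0.737 in naive-type, 1.08 in Izumo1r-type and 0.882 in regulatory cells.

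Lgals1 belongs to the memory and motility list, of which 6 of 17 measured genes were lower at 12 weeks and 0 higher, with a median log2 ratio of -0.44. The genes were S100a4, S100a6, Anxa2, Lgals1, Ahnak and Vim, several of which encode proteins of the cytoskeleton and membrane of motile cells. Summed, the list went from 12070 to 8195 CPM, a ratio of 0.679 (0.645 to 0.714), and the ranges of single members overlapped widely, from 2289 to 41660 CPM (median 9448) and from 786 to 23550 CPM (median 7461). A single 7-week member with 13826 UMIs held 20.9% of the list's UMIs at that age. Leaving out the mixed barcodes alone, 7 of 16 were lower (S100a4, S100a6, Anxa2, Lgals1, Lgals3, Crip1 and Vim) and the ratio was 0.656. Without that single member alone, 3 of 17 genes were lower (Anxa2, Ahnak and Vim) and 1 was higher (Lgals3), and the summed ratio was 0.806 (0.764 to 0.851). Lgals3 thus had a ratio of 1.16 (0.759 to 1.80) with all members, 0.581 without the mixed barcodes and 2.31 without that member. Without both 2 of 16 were lower, S100a6 and Ahnak, and the ratio was 0.789. The summed list stood at 4397 and 4333 CPM in naive-type, 6781 and 6978 CPM in Izumo1r-type and 11570 and 11430 CPM in regulatory cells.

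**Figure D5:**
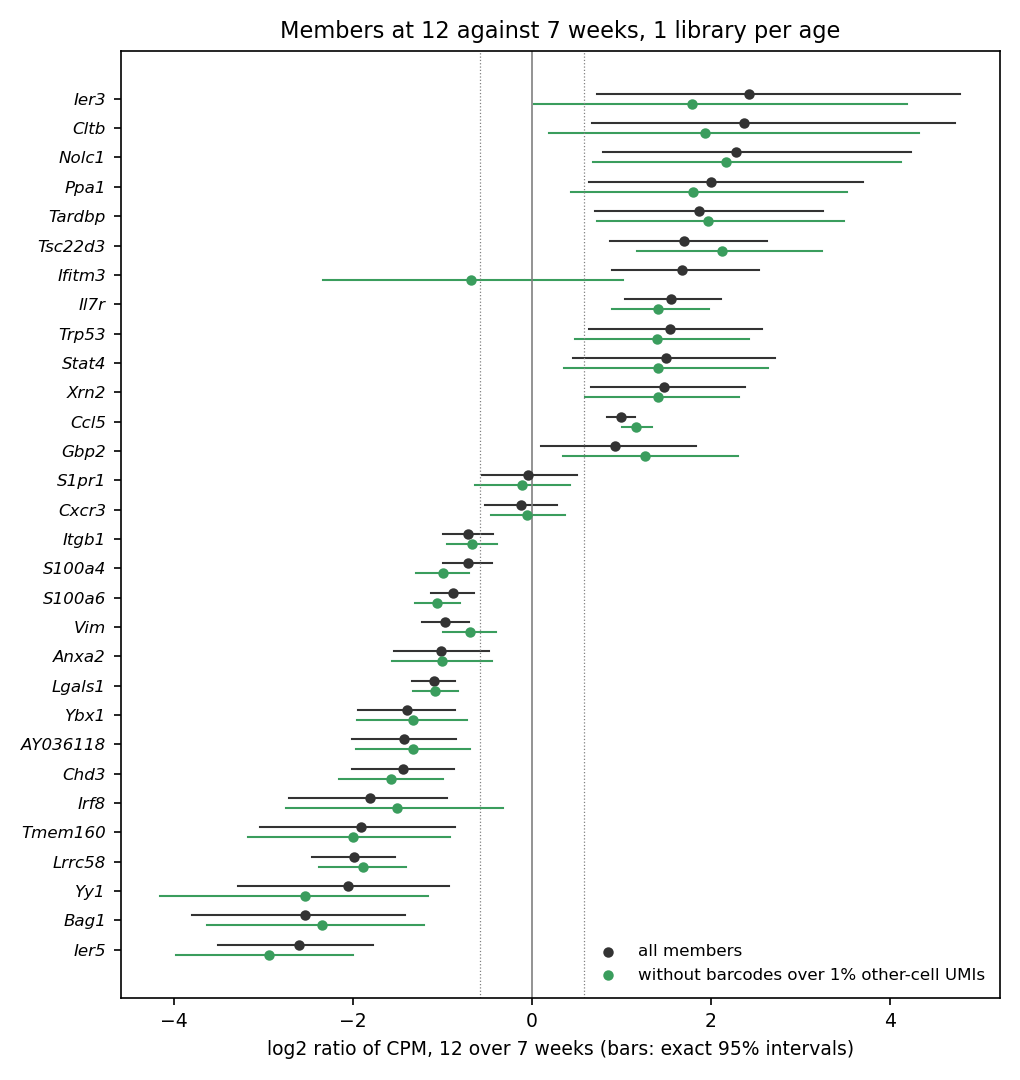
Log2 ratio of CPM at 12 over 7 weeks within members for the genes named by rank, genes of the rule and selected list genes, with exact 95% intervals, for all members (dark) and without the mixed barcodes (green). Dotted lines mark 1.5-fold, Ifitm3 lies on either side of 0 in the 2 settings, and S1pr1 lies near 0 in both.

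Of the T helper 1 list 2 of 8 measured genes were higher at 12 weeks (Stat4 and Ccl5) and 1 lower (Runx3), and without the mixed barcodes the same genes passed, of 7 measured. Of the recirculation list 0 of 5 passed in either direction, and of the T cell receptor signalling list 0 of 12. Of the T cell receptor activation list 0 of 7 passed, and of the glycolysis list 0 of 9. Of the immediate-early and stress list 2 of 17 were lower, Ier5 and Hspa1b, and of the B cell list 4 of 4 were lower with the mixed barcodes and 0 of 4 without them. Likewise 3 of 8 integrin and adhesion genes (Itgb2, Icam1 and Cd226) were lower with them and 0 of 6 without, and 6 of 7 myeloid genes with them and 0 of 2 without. Of the innate-like list 3 of 3 were lower with them and, without them, only Xcl1 was measured and was lower. Ifng stood at 123 and 119 CPM, a ratio of 0.970 (0.598 to 1.6), beside 0.642 in naive-type and 0.766 in Izumo1r-type cells, and Klf2 at 109 and 68.0 CPM, a ratio of 0.621 (0.349 to 1.11), beside 0.771 and 0.560 there. Pim1, a kinase gene induced by common gamma chain cytokines, was lower in members (403 and 182 CPM) and also in naive-type cells (279 and 123 CPM) and Izumo1r-type cells (262 and 119 CPM). Gbp2, a guanylate-binding protein induced by interferon, was higher at 1.91 (1.08 to 3.56), beside 0.901 in naive-type, 1.34 in Izumo1r-type and 0.730 in regulatory cells. Of its list, the interferon-gamma response, 1 of 13 measured genes was higher (Gbp2) and 1 lower (Irf8). Without the mixed barcodes 1 of 11 was higher and 0 lower. The summed list had a ratio of 1.03 (0.932 to 1.14) with all members.

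Acinar and endocrine transcripts were higher in the 12 week library. Without the mixed barcodes the acinar list, genes of digestive enzymes, summed to 10.3 and 380 CPM in members and 24.4 and 285 CPM in naive-type cells, and the endocrine list to 15.4 and 190 CPM and to 38.3 and 138 CPM. Both ages' levels thus differed in the same direction in members and naive-type cells, and whether they move with other differences between the ages was not tested.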

How the data were processed

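Per the submitters' processing notes, Cell Ranger 1.3.1 and the mm10 build were used. Cell calling settings and the annotation's version were not stated. Matrices as deposited hold raw UMI counts per gene and barcode, as the authors made them, for 27998 genes. The libraries held 1113 and 2812 barcodes with 8701184 and 19288252 UMIs. Barcodes needed 200 genes and no more than 10% mitochondrial UMIs, and 4 and 8 failed. Positions come from the GENCODE annotation of mm10.

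Members, populations and the 28 gene lists were chosen with earlier results of these data known. Of 289 distinct listed genes 2 were not found by symbol. UMIs were summed per population and library and scaled to CPM. Ratios carry exact conditional binomial intervals, CPM exact Poisson intervals, and shares Clopper-Pearson intervals, at 95%. A gene was called between ages at 1.5-fold with an interval excluding 1, and between populations at 2-fold in both libraries, from 30 UMIs. List medians were taken over listed genes with 30 UMIs after adding 0.5 UMI to each sum. A sum of 0 took a floor of 3 UMIs.

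Named genes were, leaving out mitochondrial, ribosomal protein, haemoglobin, rule, acinar, endocrine and predicted genes and genes with over 50% of the higher library's UMIs in 1 cell, the 10 higher and the 10 lower whose interval bound nearer 1 lay farthest from it (between ages), or with the largest and smallest folds by the library nearer 1 (between populations), besides rule genes and list members. B cell barcodes had at least 2 UMIs of Cd79a, a UMI of Ms4a1 and 0 of CD3 genes. The interval and calling code was tested on Poisson sums simulated from the members' pooled profile. That simulation held no variation between cells. It checks the code and not the intervals for genes whose UMIs lie mostly in a single member. Tools were Python 3.11.15, numpy 2.4.6, scipy 1.17.1, pandas 2.3.3, scanpy 1.11.5 with its Scrublet and matplotlib 3.10.9. Other settings tried were other gates, scaling, UMI limits, cell weights, thinning to 2000 UMIs per cell, and leaving out single cells, the UMIs of each gene's top cell, or doublets. The mixed barcodes, the regulatory comparison, the member rich in memory list UMIs and the Ccl5 limit were chosen after seeing the data. Some genes that these rules pick are not reported here.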

Additional observations from a re-analysis of the deposited data

How the results depend on the processing

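The share of members among CD4 T cells kept its ratio within the interval under every gate tried. No paired analysis was possible because each age had 1 library. Counts of genes depended on the settings. Between ages, genes higher and lower at 12 weeks numbered 268 and 371 with cells weighted equally and no interval required. They numbered 169 and 332 from 10 UMIs, 25 and 73 from 100 UMIs, and 26 and 74 with members thinned to 2000 UMIs. Taking away the UMIs of each gene's top cell in the higher library gave 34 and 70. Higher and lower against naive-type cells, they numbered 64 and 16 from 100 UMIs, 91 and 18 after thinning and 92 and 16 at 3-fold. Against Izumo1r-type cells they numbered 40 and 109 from 100 UMIs, 45 and 154 after thinning and 35 and 58 at 3-fold. Against regulatory cells they numbered 17 and 70 from 100 UMIs, 40 and 83 after thinning and 21 and 80 at 3-fold. The causes were not tested, except that the higher limits and thinning leave fewer genes to test. Scaling by the median of gene ratios shifted folds at 12 weeks by 0.12 on the log2 scale against naive-type cells (171 and 71 genes). The 12 over 7 week direction of a few list genes reversed. Without the UMIs of each gene's top cell in the higher library these were Pdcd1 (1.04), Cst3 (1.91) and Ctss (1.42). Without members over 3 times the median UMIs they were Cst3 (1.3) and Ctss (1.25), and without the mixed barcodes H2-Aa (1.56) and Ctss (1.94). Lgals3, not called with all members, was lower without the mixed barcodes (0.581) and higher without the member richest in memory list UMIs (2.31). Depth limits genes with few UMIs, and a gene with 0 UMIs in these members may still be expressed.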
